A study of Homo sapiens with 24 samples.

Results

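The libraries compared here are those of siNONO-3 and siNONO-4, a pair of small interfering RNAs (siRNAs) against NONO, which make up 6 of the 24 RNA sequencing libraries of the series, 3 for each siRNA. All were made from SBC-3, an established human small cell lung cancer line, 72 h after a 10 nM transfection, with no other genetic change given in the labels. The 3 libraries of a control siRNA (siCtrl), given the same dose and time, serve as the common baseline. The series asks how the paraspeckle proteins SFPQ and NONO and the RNA NEAT1 act on the making of microRNAs. Comparing the siRNAs of 1 target asks which changes in RNA depend on the siRNA used. The labels do not state whether replicates are separate cultures. If they are not, the spread on which every p-value rests is technical.

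NONO is an RNA- and DNA-binding protein that pairs with SFPQ or PSPC1 and helps to build paraspeckles, nuclear bodies that form on the long noncoding RNA NEAT1. An siRNA is a short RNA duplex of which 1 strand, the guide, is loaded into an Argonaute protein and directs the cutting of a matching mRNA. A guide can also lower other mRNAs, as a microRNA does, through pairing of its seed, bases 2 to 8, with matching letters in their 3' untranslated regions (3' UTRs).

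Total counts ran from 9451335 to 10660126 in the siNONO-3 libraries and from 9239632 to 10341311 in the siNONO-4 libraries. Mitochondrial genes took 7.97% to 8.44% of counts with siNONO-3 and 8.18% to 10.3% with siNONO-4 (exact 2-sided permutation test, p = 0.3, where 0.1 is the smallest p that 3 against 3 libraries allow). NONO stood at 58.7, 76.4 and 72.5 CPM (counts scaled to an equal library total) with siNONO-3, at 65.0, 75.1 and 70.2 CPM with siNONO-4 and at 396, 415 and 386 CPM with siCtrl. The siNONO groups overlapped, and both lay far below siCtrl. NONO was lower than siCtrl by -2.53 (log2) with siNONO-3 and by -2.51 with siNONO-4, and the difference between the siRNAs was -0.02 (95% interval -0.20 to 0.17, adjusted p = 0.935; exact 2-sided permutation test of CPM, p = 1.0). Among markers of small cell lung cancer subtypes, INSM1, CHGA, NCAM1 and UCHL1 were at or near 0 CPM, NEUROD1 averaged 9.93 CPM with siNONO-3 and 11.2 CPM with siNONO-4, and YAP1 averaged 346 CPM with siNONO-3 and 462 CPM with siNONO-4. The defining neuroendocrine markers of the labelled cancer type were at or near 0 apart from NEUROD1 and SYP. Of 15 markers of other cell types, 5 had no read in the 6 libraries, and their summed level was 60.9 to 64 CPM with siNONO-3 and 62.8 to 72.5 CPM with siNONO-4, most of it TP63. In bulk RNA, fewer cells of a type and less RNA per cell cannot be told apart.

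With NONO at similar levels, 1590 of 15869 genes tested (10%) differed between siNONO-3 and siNONO-4 at an adjusted p under 0.05. Of these, 747 (4.71% of genes tested) were higher and 843 (5.31%) were lower with siNONO-3. A difference of at least 2-fold was reached by 81 higher and 152 lower genes, so that most calls were small, with median absolute differences of 0.46 (log2) among the higher and 0.55 among the lower genes. The libraries of the siRNAs did not overlap in 1563 of the called genes, against 29.9% of all genes tested. The median over all genes tested was 0.00. In a principal component analysis of the 6 libraries, the component that separated the siRNAs held 52.5% of the variance, and the component that held 26.2% followed the replicate numbers. Same-numbered libraries deviated together, and with the replicate number as a block 2733 genes (17.2%) were called, 1330 higher (8.38%) and 1403 lower (8.84%), among them all 1590. The count was smaller with 1 library left out, at 1019 without siNONO-3 replicate 2, 951 without siNONO-3 replicate 3, 1029 without siNONO-4 replicate 1 and 1021 without siNONO-4 replicate 3. For scale, the pair of siRNAs against SFPQ, siSFPQ-2 minus siSFPQ-3, differed in 2328 genes (14.7%).

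**Figure D1:**
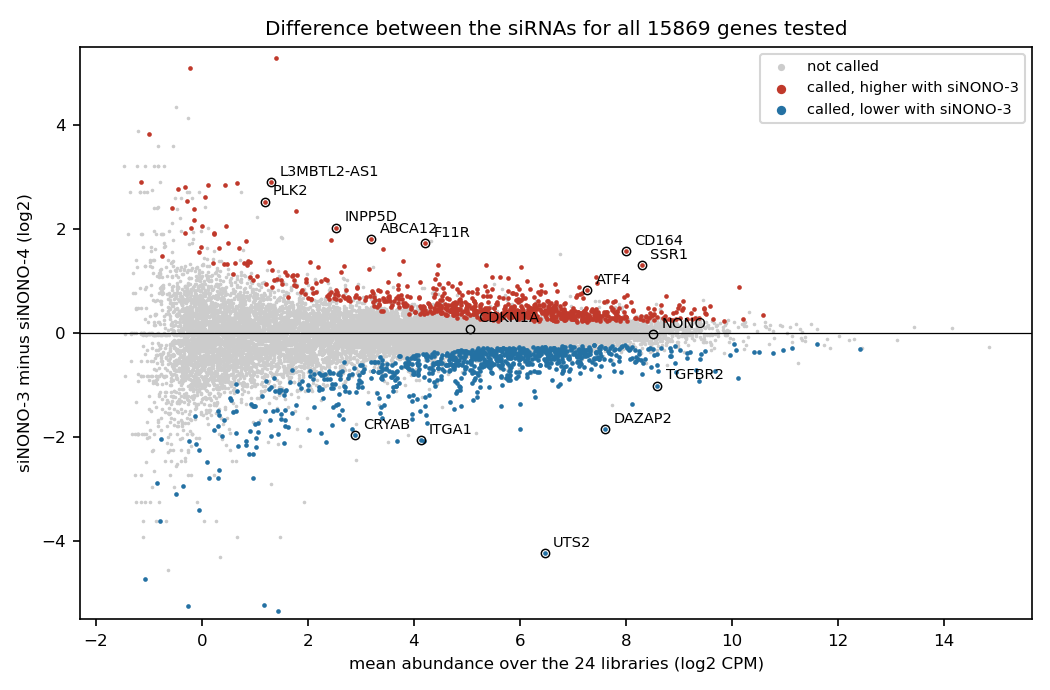
Difference between siNONO-3 and siNONO-4 (vertical axis, log2) against mean abundance over the 24 libraries (horizontal axis, log2 CPM) for each gene tested, with called genes in red (higher with siNONO-3) and blue (lower). UTS2 lies at -4.24, farther from 0 than genes of similar abundance, while NONO and CDKN1A lie near 0.

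The siRNAs were then each set against siCtrl, from which 3165 genes (19.9%) differed with siNONO-3, 1431 higher (9.02%) and 1734 lower (10.9%), and 1752 genes (11%) with siNONO-4, 810 higher (5.1%) and 942 lower (5.94%). Both comparisons use the same 3 siCtrl libraries, so their values are given side by side and not correlated. Of the 843 genes lower with siNONO-3, 501 were called against siCtrl with siNONO-3 and not with siNONO-4, and all 501 fell. A further 113 were called with siNONO-4 and not with siNONO-3, and all of these rose with siNONO-4. Of the 747 higher genes, 279 were called with siNONO-3 and not with siNONO-4 and rose, whereas 184 were called with siNONO-4 and not with siNONO-3 and fell. These directions largely follow from how the genes were picked, since the difference between the siRNAs equals that between their changes against siCtrl. Both siRNAs moved 127 of the differing genes in 1 direction to a different degree, and 25 in opposite directions. The remaining 361 were called against siCtrl with neither siRNA. The counts against siCtrl were smaller with 1 library left out, at 1979 for siNONO-3 without its replicate 3, and for siNONO-4 at 924 without its replicate 3, 981 without siCtrl replicate 1 and 1129 without siCtrl replicate 2. With the replicate block, siNONO-4 minus siCtrl gave 3118 genes.

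Among genes with at least 5 CPM in either siNONO group, the largest fall was that of UTS2, which encodes the vasoactive peptide urotensin 2. UTS2 had 10.46, 11.04 and 10.63 CPM with siNONO-3, against 235, 175 and 196 CPM with siNONO-4 and 157, 192 and 246 CPM with siCtrl. All siNONO-3 libraries lay far below the others, and siNONO-4 and siCtrl overlapped. The difference was -4.24 (log2, SE 0.52, adjusted p = 4.74e-05). DAZAP2, a small proline-rich protein that binds other regulators, had 68.1, 64.2 and 59.0 CPM with siNONO-3, against 238, 221 and 230 CPM with siNONO-4 and 202, 195 and 189 CPM with siCtrl, and fell by 1.85 (log2, SE 0.08, adjusted p = 3.93e-15). It was called in opposite directions against siCtrl, at -1.61 for siNONO-3 minus siCtrl and 0.23 for siNONO-4 minus siCtrl. ITGA1, the collagen-binding integrin alpha 1 subunit, had 4.74, 4.03 and 3.64 CPM with siNONO-3, against 20.2, 16.8 and 14.6 CPM with siNONO-4 and 22.2, 14.4 and 17.8 CPM with siCtrl (difference -2.06, SE 0.26, adjusted p = 1.41e-05). Its siNONO-3 libraries were all low, without overlap. WASHC3, a subunit of the WASH complex that shapes actin on endosomes, had 6.71, 4.14 and 3.64 CPM with siNONO-3, against 12.7, 16.7 and 16.2 CPM with siNONO-4 (difference -1.65, adjusted p = 1.28e-06).

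The same pattern, low with siNONO-3 and near siCtrl with siNONO-4, held for the formin FMNL1 (difference -2.10), GAS2 (-1.76) and N4BP2L1 (-1.48), which differed from siCtrl with siNONO-3 and not with siNONO-4. TRAPPC3L (-2.08) and PRXL2A (-1.49) showed it too, but their calls were lost in some fits that left out 1 library. With the replicate block over all libraries both were called (adjusted p = 0.00115 and 6.31e-07). The adjusted p of TRAPPC3L was up to 0.114, without siNONO-3 replicate 3 or siNONO-4 replicate 1, and that of PRXL2A up to 0.137, without siNONO-3 replicate 2 or 3 or siNONO-4 replicate 1. TMEM26 and KBTBD11 fell with both siRNAs, farther with siNONO-3. TMEM26 had 3.06, 1.70 and 2.14 CPM with siNONO-3, against 5.70, 8.04 and 7.08 CPM with siNONO-4 and 32.9, 25.5 and 46.7 CPM with siCtrl (difference -1.58, SE 0.32, adjusted p = 0.00235). The siRNAs did not overlap, and both lay below every siCtrl library.

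CRYAB differed through high siNONO-4 libraries. This small heat shock protein had 5.63, 3.19 and 4.48 CPM with siNONO-3, against 21.7, 13.7 and 16.5 CPM with siNONO-4 and 3.22, 3.27 and 3.06 CPM with siCtrl. The difference was -1.96 (log2, SE 0.22, adjusted p = 6.18e-07), with 2.44 for siNONO-4 minus siCtrl and 0.48 (adjusted p = 0.183) for siNONO-3 minus siCtrl. EGFLAM, an extracellular matrix protein, IFITM2 and IFITM3 fell with siNONO-3 and rose with siNONO-4 against siCtrl. IFITM3, a membrane protein that blocks virus entry, had 15.5, 13.6 and 15.5 CPM with siNONO-3, against 52.9, 33.3 and 32.1 CPM with siNONO-4 and 25.7, 21.8 and 25.6 CPM with siCtrl (difference -1.41, SE 0.16, adjusted p = 7.01e-07). The 3 groups did not overlap. IFITM2 and IFITM3 are near-identical, and the sources used here do not say how reads matching both were counted.

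Among the rises, several genes were up with both siRNAs and farther up with siNONO-3. INPP5D, the inositol phosphatase SHIP1, had 25.2, 14.54 and 17.5 CPM with siNONO-3, against 6.08, 4.40 and 3.49 CPM with siNONO-4 and 2.41, 2.25 and 1.89 CPM with siCtrl (difference 2.03, SE 0.22, adjusted p = 3.81e-07). ABCA12, a lipid transporter of the skin, had 37.9, 27.8 and 29.4 CPM with siNONO-3, against 12.5, 9.44 and 5.03 CPM with siNONO-4 and 3.75, 3.17 and 2.04 CPM with siCtrl (difference 1.81, SE 0.23, adjusted p = 9.39e-06). In both genes the 3 groups stood in the order siNONO-3, siNONO-4, siCtrl without overlap. F11R, the junctional adhesion molecule A, had 31.5, 21.02 and 25.8 CPM with siNONO-3, against 9.69, 7.29 and 6.67 CPM with siNONO-4 and 7.95, 6.14 and 5.76 CPM with siCtrl. It differed by 1.72 (log2, SE 0.15, adjusted p = 1.73e-08) and was not called for siNONO-4 minus siCtrl (0.26, adjusted p = 0.361). The antisense RNA L3MBTL2-AS1 followed the pattern of F11R, with a difference of 2.91. ADM2, a peptide hormone of the adrenomedullin family, had 4.34, 9.13 and 8.95 CPM with siNONO-3, against 1.52, 1.61 and 1.23 CPM with siNONO-4 (difference 2.35, SE 0.48, adjusted p = 0.00252). With siCtrl ADM2 had 1.34, 3.885 and 2.55 CPM, and it was not called for siNONO-4 minus siCtrl (-0.81, adjusted p = 0.371). MYLK, myosin light chain kinase (difference 1.36), was not called for siNONO-4 minus siCtrl either (-0.10, adjusted p = 0.915). Its call between the siRNAs depended on siNONO-4 replicate 3, without which its adjusted p was 0.0686.

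Other genes were higher with siNONO-3 and were called against siCtrl mainly through a fall with siNONO-4. CD164, a sialomucin of the cell surface, had 278, 271 and 272 CPM with siNONO-3, against 94.4, 98.4 and 81.6 CPM with siNONO-4 and 230, 229 and 218 CPM with siCtrl (difference 1.58, SE 0.09, adjusted p = 2.35e-12). SSR1, a subunit of the translocon-associated complex that helps proteins enter the endoplasmic reticulum, had 406, 427 and 426 CPM with siNONO-3, against 171, 193 and 146 CPM with siNONO-4 and 347, 362 and 307 CPM with siCtrl (difference 1.31, SE 0.10, adjusted p = 5.68e-10). In both genes every siNONO-4 library lay below every other library. NEFH, the heavy neurofilament chain, had 18.8, 15.7 and 11.2 CPM with siNONO-3, against 5.51, 6.22 and 3.08 CPM with siNONO-4 and 20.3, 16.5 and 16.1 CPM with siCtrl (difference 1.62, SE 0.25, adjusted p = 8.27e-05). RASSF3, a Ras-association domain protein, NEDD9, a scaffold of cell adhesion signalling, and SLC2A4RG, a DNA-binding regulator, had the same pattern, with differences of 1.31, 1.39 and 1.32. TAF13, a subunit of the general transcription factor TFIID, rose with siNONO-3 (0.74) and fell with siNONO-4 (-0.52) against siCtrl.

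**Figure D2:**
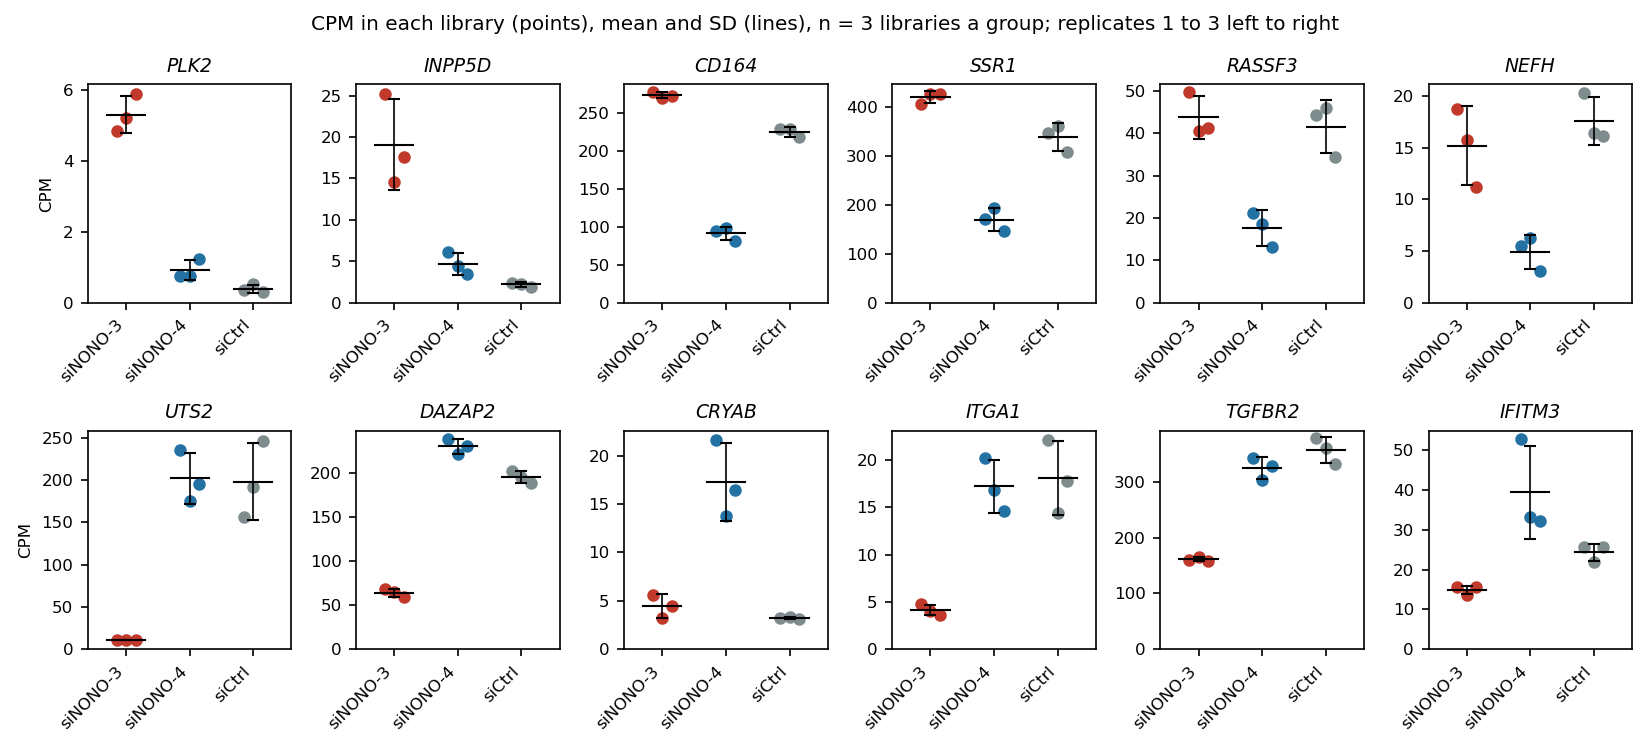
CPM in each library for 12 genes, with siNONO-3, siNONO-4 and siCtrl from left to right, the mean and the SD (n = 3 libraries a group), and each vertical axis starting at 0. CD164, SSR1, RASSF3 and NEFH are low with siNONO-4, UTS2, DAZAP2, ITGA1 and TGFBR2 are low with siNONO-3, and CRYAB and IFITM3 are high with siNONO-4.

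Some of these genes overlap another gene, and how the counting used strand is not stated, so reads of overlapping genes cannot be told apart. This holds for UTS2 with PER3, DAZAP2 with SMAGP, FMNL1 with FMNL1-AS1, GAS2 with FANCF, L3MBTL2-AS1 with L3MBTL2 and SLC2A4RG with ZBTB46, as well as TRAPPC3L with CALHM5, TMEM26 with TMEM26-AS1, MYLK with MYLK-AS1 and DIPK1A with RPL5, all on the other strand. Among genes named from the lists it holds for IFIT2 with LIPA, IL6 with STEAP1B, IER3 with IER3-AS1, SNHG7 with DIPK1B, DTL with INTS7, BNIP3L with PNMA2, FADS1 with FADS2, MAP1LC3B with FBXO31 and others. ITGA1 overlaps PELO and MT-CO3 overlaps MT-ATP6 on the same strand.

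**Figure D3:**
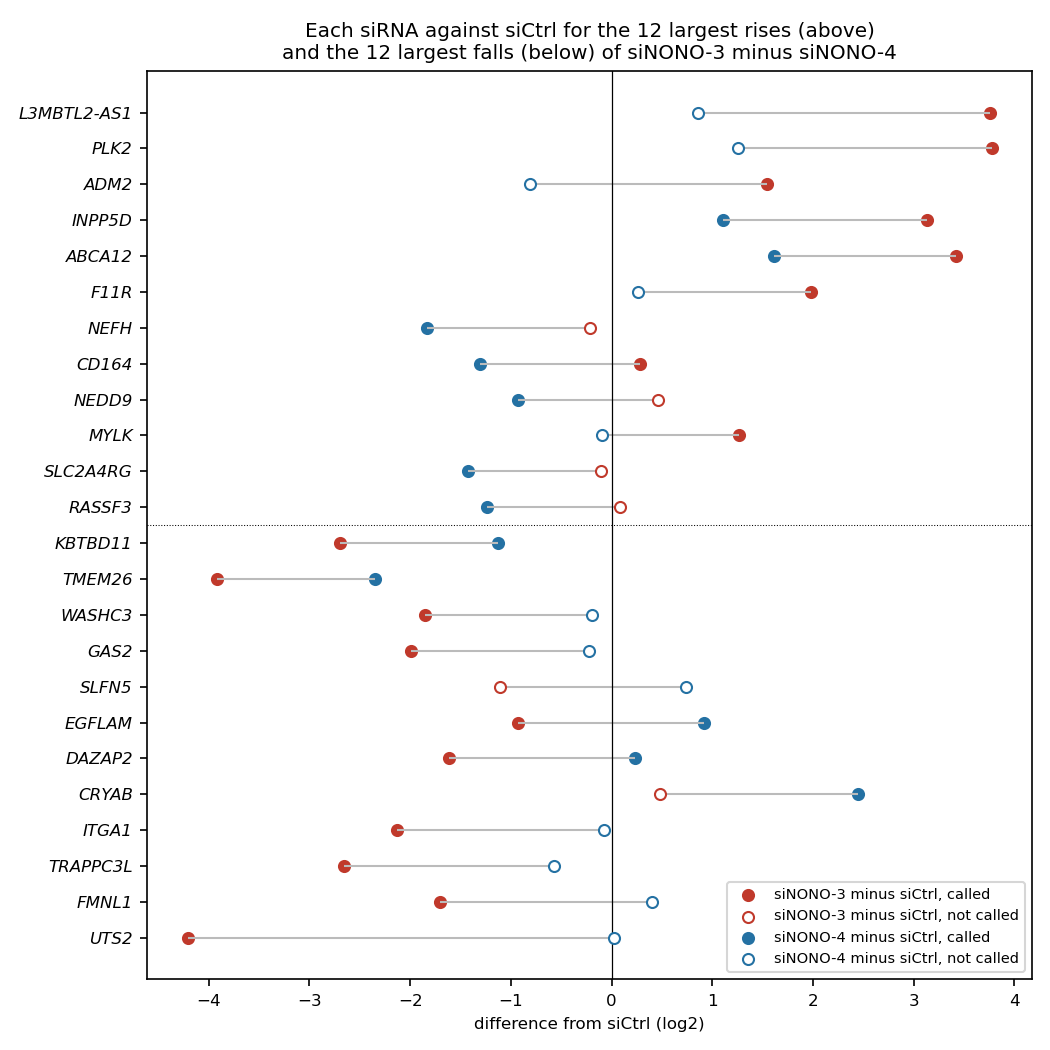
Difference from siCtrl (horizontal axis, log2) with siNONO-3 (red) and siNONO-4 (blue) for the 12 largest rises and the 12 largest falls of siNONO-3 minus siNONO-4 among the genes named by size, with filled points for called and open points for not called differences. UTS2 lies at -4.21 with siNONO-3 and 0.03 with siNONO-4, and CD164 at 0.28 with siNONO-3 and -1.30 with siNONO-4.

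The 3' UTRs of the genes that fell with 1 siRNA were searched for shared letters, since such letters are what a seed would pair with. Among 12192 genes tested with an annotated 3' UTR of at least 100 bases, 460 were lower with siNONO-3 than with siNONO-4 and fell against siCtrl with siNONO-3 and not with siNONO-4. All 16384 heptamers (7-letter words) were ranked on the mRNA strand by how far the number of these 3' UTRs that held them exceeded the number expected from their lengths. The excess was measured in binomial SDs of the expected number, not as a ratio. The heptamer AACATCA ranked 1 and ACATCAA ranked 2, which overlap and join to the 8 bases AACATCAA. AACATCA was in 32.6% of the 460 3' UTRs, against 18.8% expected at their lengths and 13.99% of all 12192, and ACATCAA was in 26.5%, against 14.7% expected and 10.9% of all. For the 177 genes that were higher with siNONO-3 than with siNONO-4 and fell against siCtrl with siNONO-4 and not with siNONO-3, CCACACA ranked 1 and ACCACAC ranked 2, which join to ACCACACA. CCACACA was in 37.9% of the 177 3' UTRs, against 19.9% expected at their lengths and 14.6% of all, and ACCACAC was in 35.03%, against 19.2% expected and 14.1% of all. On odd-numbered chromosomes alone AACATCA and ACATCAA ranked 2 and 5, and on even-numbered chromosomes and X they ranked 2 and 1. CCACACA and ACCACAC ranked 1 and 2 on odd-numbered chromosomes, but 27 and 72 on even-numbered chromosomes and X. The letters were chosen from the full sets, of which these chromosome groups are parts, so the ranks are no independent check.

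The sites below show these letters, in capitals, in 4 genes of each set, taken by size of difference among genes at 5 CPM or more with some genes passed over for where their sites lie, read 5' to 3' on the mRNA strand from GENCODE release 29 transcripts (GRCh38). The first 4 are from genes that fell with siNONO-3.
WASHC3: agtcataaaAACATCAAatggccaca
FAM8A1: gactgttgaAACATCAAggagttaaa
DIPK1A: cattccataAACATCAAcagtgagtg
TGFBR2: acaaggaaaAACATCAAatattccca
The other 4 are from genes that fell with siNONO-4.
RASSF3: acccagctaACCACACAacagggctt
NR3C1: tattaccaaACCACACAtttgtaccg
TMEM185B: aaaggaataACCACACAgctgtttgt
SNX12: cacaaaccaACCACACAgtctctgac

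These stretches lie in the last exon of their genes, all in the 3' UTR. WASHC3 is read from chr12:102013003-102013028 on the minus strand, FAM8A1 from chr6:17609332-17609357 on the plus strand, DIPK1A from chr1:92843075-92843100 on the minus strand and TGFBR2 from chr3:30691976-30692001 on the plus strand. RASSF3 is read from chr12:64696289-64696314 on the plus strand, NR3C1 from chr5:143278011-143278036, TMEM185B from chr2:120221631-120221656 and SNX12 from chrX:71060014-71060039, all 3 on the minus strand. TGFBR2, the type 2 receptor for TGF-beta, had 161, 166 and 158 CPM with siNONO-3, against 343, 304 and 330 CPM with siNONO-4 and 380, 362 and 334 CPM with siCtrl. Every siNONO-3 library lay below the rest (difference -1.01, SE 0.10, adjusted p = 6.03e-08). NR3C1, the glucocorticoid receptor, had 44.5, 34.4 and 37.4 CPM with siNONO-3, against 22.6, 15.2 and 17.4 CPM with siNONO-4 and 35.6, 35.8 and 27.9 CPM with siCtrl (difference 1.07, SE 0.13, adjusted p = 2.65e-06). SNX12, a sorting nexin of endosomes, had 32.5, 32.0 and 32.0 CPM with siNONO-3, against 16.9, 17.2 and 15.7 CPM with siNONO-4 and 28.5, 27.6 and 30.2 CPM with siCtrl, and differed by 0.95 (SE 0.10, adjusted p = 2.1e-07). In both genes the siNONO-4 libraries were the lowest. FAM8A1 and DIPK1A differed by -1.23 and -1.15, and RASSF3 and TMEM185B by 1.31 and 0.97.

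Across all genes with a 3' UTR, the difference between the siRNAs was graded with the length of the match. These letters were chosen from the same differences, so the values are a description with no test. The 492 genes with AACATCAA had a median difference of -0.16 (log2), with -0.10, -0.15 and -0.18 between the libraries of replicates 1, 2 and 3. The median was -0.12 in the 183 genes with both heptamers apart, -0.05 in the 1682 genes with 1 of them, 0.00 in the 1710 genes with their shared 6 bases, and 0.03 in the 8125 genes with none. Of genes with the 8 bases, 18.5% were called lower with siNONO-3 and 3.25% higher, against 4.38% and 5.85% of genes with none. Against siCtrl their median was -0.18 with siNONO-3 and -0.04 with siNONO-4. For ACCACACA the direction was the opposite one. Its 497 genes had a median of 0.08, against 0.03 with 1 heptamer and 0.00 with none, and 15.7% were called higher with siNONO-3 and 5.23% lower, against 4.42% and 6.44% of genes with none. The 255 genes with both heptamers apart did not follow this order, with a median of 0.01.

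**Figure D4:**
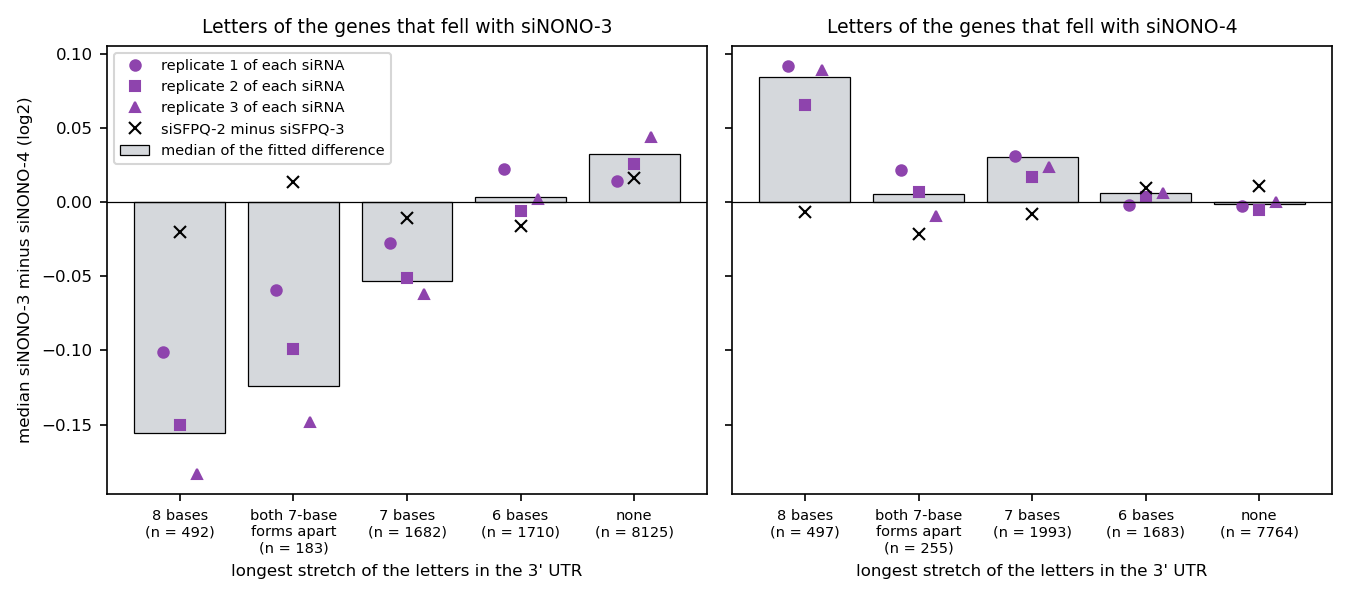
Median difference between siNONO-3 and siNONO-4 (vertical axis, log2) by the longest stretch of the letters in the 3' UTR, for the letters of the genes that fell with siNONO-3 (left) and with siNONO-4 (right), with bars for the fitted difference, points for replicates 1 to 3 and crosses for siSFPQ-2 minus siSFPQ-3. The left bars run from -0.16 at 8 bases to 0.03 at none, and the 8-base bar on the right stands at 0.08.

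Genes with the 8 bases had longer 3' UTRs, with a median of 3342 bases for AACATCAA and 3262 for ACCACACA, against 987 and 997 for genes with none. Among 3' UTRs of 1 to 3 kb the medians were -0.16 with AACATCAA and 0.03 with none, and 0.14 with ACCACACA and -0.01 with none. Genes with the reverse complement of the letters had medians of -0.01 (TTGATGTT, 831 genes) and 0.00 (TGTGTGGT, 755 genes). In siSFPQ-2 minus siSFPQ-3, the 8-base genes had medians of -0.02 and -0.01, against 0.02 and 0.01 with none. The antisense oligonucleotides against NEAT1 were compared too, lower-numbered minus higher-numbered. There the AACATCAA medians were also graded, with -0.06 at 8 bases, -0.04 with 1 heptamer and 0.02 with none. Among 3' UTRs of 1 to 3 kb they were -0.05 and 0.00 with none. Genes with TTGATGTT had -0.05. The ACCACACA medians were -0.01 at 8 bases and 0.00 with none. The cause of this grading was not tested. Of the 15 largest falls, 4 held AACATCAA (DAZAP2, SLFN5, WASHC3 and TMEM26), against 4.04% of all 3' UTRs. Of the 14 largest rises with a 3' UTR, 3 held ACCACACA (RASSF3, SSR1 and TAF13), against 4.08% of all. These falls and rises come from the differences that gave the letters, and the shares of all are not matched for 3' UTR length. SSR1 held both words. UTS2, FMNL1, GAS2, CRYAB, IFITM2 and N4BP2L1 had no stretch of 6 bases or more of the siNONO-3 letters in the 3' UTR used.

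The target itself was searched for the same letters. The NONO transcript of 2713 bases, NONO-201, held AACATCAA in its coding sequence, in exon 7 of 12 (chrX:71296957-71296982, plus strand), and that was the only copy.
NONO: gtggaccgcAACATCAAggaggctcg
NONO-201 held AACATCA 2 times, ACATCAA 1 time and the reverse complement TTGATGTT 0 times. It held ACCACACA 0 times and the reverse complement TGTGTGGT 2 times. How often such words occur by chance in a transcript of this length was not tested. No mature human microRNA of 2545 in the RefSeq table had UGAUGUU or GUGUGGU, which would pair with AACATCA and ACCACAC, as its bases 2 to 8. The letters that would pair with the other heptamers, ACATCAA and CCACACA, were not searched for among the microRNAs. No source used here gives the siRNA sequences, so whether their seeds pair with these letters was not tested.

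A few single genes are given next for their values alone, picked with those values known and with no statement on the groups they belong to. PLK2, a polo-like kinase, had 4.84, 5.20 and 5.87 CPM with siNONO-3, against 0.760, 0.751 and 1.23 CPM with siNONO-4 and 0.357, 0.511 and 0.291 CPM with siCtrl (difference 2.52, SE 0.33, adjusted p = 6.94e-06). MDM2, a ubiquitin ligase, had 900.0, 707 and 749 CPM with siNONO-3, against 644, 569 and 557 CPM with siNONO-4 (difference 0.41, SE 0.11, adjusted p = 0.0161). The siNONO-3 libraries lay above the siNONO-4 libraries in both genes. APAF1, the scaffold of the apoptosome, had 61.3, 52.7 and 42.7 CPM with siNONO-3, against 24.97, 24.5 and 26.1 CPM with siNONO-4, and was called in opposite directions against siCtrl (0.36 with siNONO-3 and -0.69 with siNONO-4). CDKN1A, the cyclin-dependent kinase inhibitor p21, had 59.0, 50.7 and 54.2 CPM with siNONO-3, against 59.3, 42.9 and 52.3 CPM with siNONO-4 and 14.6, 13.0 and 16.9 CPM with siCtrl. The siRNAs overlapped in CDKN1A, with a difference of 0.08 (95% interval -0.21 to 0.38, adjusted p = 0.78), and both lay above siCtrl. CCNG1, cyclin G1, was lower with siNONO-3, with 428, 390 and 336 CPM, against 635, 647 and 603 CPM with siNONO-4 and 604, 557 and 499 CPM with siCtrl (difference -0.71, SE 0.11, adjusted p = 4.53e-05).

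Gene lists were then described by counts and medians. The count of each list is to be read beside the shares over all genes tested, 4.71% higher and 5.31% lower. With the replicate block those shares were 8.38% and 8.84%. Genes of the integrated stress response, in which the transcription factor ATF4 drives amino acid supply and transfer RNA charging, had positive differences. Of 37 tested members 4 were higher with siNONO-3 and 0 were lower, against 4.71% and 5.31% of all genes tested, and the median difference was 0.52 (log2), against 0.00 for all genes. All 37 fitted differences were positive, against 49.7% of all genes tested. Against siCtrl the median of the list was 0.25 with siNONO-3 and -0.29 with siNONO-4. Few members were called against siCtrl, 3 up and 2 down with siNONO-3, and 1 up and 2 down with siNONO-4. ATF4 had 168, 248 and 237 CPM with siNONO-3, against 117, 132 and 119 CPM with siNONO-4 and 146, 173 and 171 CPM with siCtrl (difference 0.83, SE 0.17, adjusted p = 0.00278). The siNONO-3 libraries lay above all siNONO-4 libraries, replicate 1 being the closest. Against siCtrl, ATF4 was not called with siNONO-3 (0.41, adjusted p = 0.0876) or siNONO-4 (-0.41, adjusted p = 0.125). The other called members were ATF3, a related factor, SARS1, the seryl-tRNA synthetase, and the sestrin SESN2. ATF3 (difference 0.82) reached an adjusted p of up to 0.187 without siNONO-3 replicate 2 or 3 or siNONO-4 replicate 1 or 2, and SARS1 (0.68) of up to 0.0948 without siNONO-3 replicate 2 or 3 or siNONO-4 replicate 1 or 3.

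The shift differed between replicates. The median of the list was 0.16 between the replicate 1 libraries, 0.59 between those of replicate 2 and 0.70 between those of replicate 3. With the replicate block 18 members were called higher and 0 lower, and 26 with the block on the siCtrl and siNONO libraries only. The count of 4 was 12 by DESeq2, 11 with the siRNA libraries only and 7 with the siCtrl and siNONO libraries only. It was 13 without siNONO-3 replicate 1, and 2 without siNONO-3 replicate 2, siNONO-3 replicate 3 or siNONO-4 replicate 1. SLC7A11, the cystine transporter, had 10.9, 54.8 and 39.6 CPM with siNONO-3, against 9.40, 15.6 and 11.6 CPM with siNONO-4 (difference 1.53, adjusted p = 0.211, with the replicate block 0.073). Its replicate 1 libraries were close and the others far apart. ALDH1L2, a mitochondrial folate enzyme, had 2.07, 5.73 and 6.34 CPM with siNONO-3, against 0.855, 1.29 and 1.85 CPM with siNONO-4 (difference 1.83, adjusted p = 0.0981, with the replicate block 2.91e-05). TRIB3, a pseudokinase, had 14.1, 23.7 and 22.8 CPM with siNONO-3, against 9.50, 14.6 and 9.23 CPM with siNONO-4 (difference 0.87, adjusted p = 0.0774, with the replicate block 0.0133). With siCtrl SLC7A11 had 8.94, 38.65 and 23.1 CPM, ALDH1L2 1.25, 2.76 and 2.84 CPM and TRIB3 12.69, 16.36 and 14.5 CPM. None of these genes was called against siCtrl with either siRNA. The endoplasmic reticulum chaperone list, related to another branch of stress signalling, had 4 of 21 tested members higher (PDIA4, XBP1, SEC61B and HSPA5), 0 lower and a median of 0.07. The adjusted p reached 0.092 for PDIA4, 0.298 for XBP1 and 0.169 for SEC61B with 1 library left out. That count was 0 without siNONO-3 replicate 2, siNONO-4 replicate 1 or siNONO-4 replicate 3, 1 without siNONO-3 replicate 3 and 2 without siNONO-4 replicate 2.

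**Figure D5:**
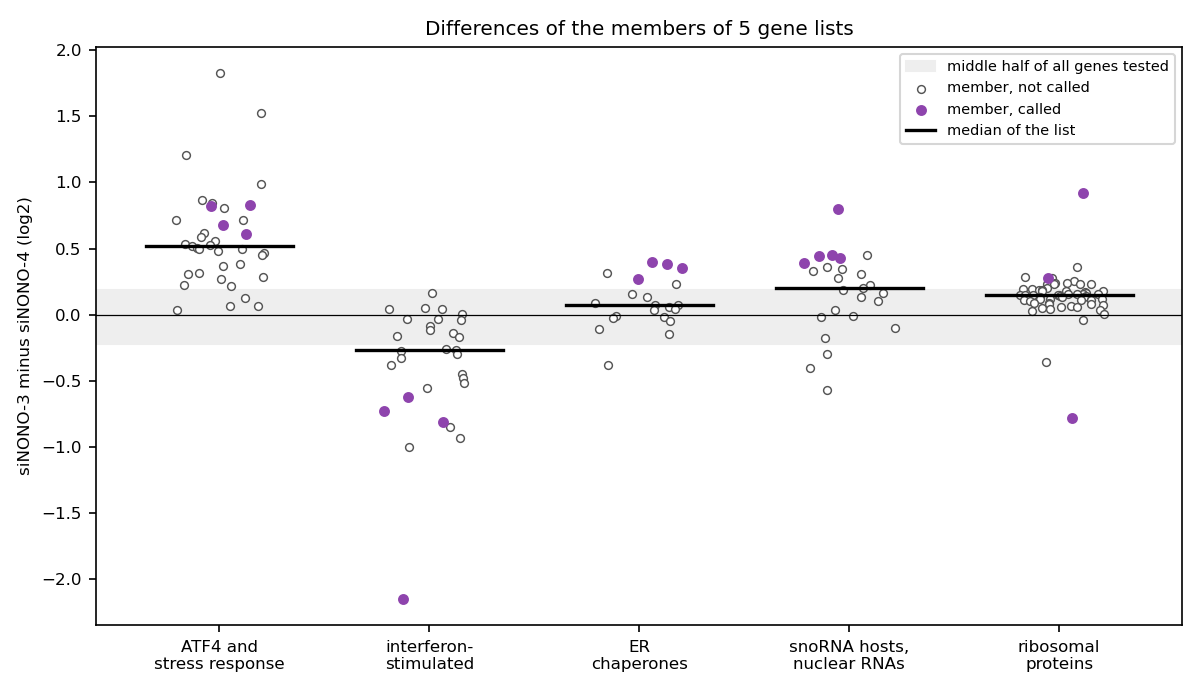
Difference between siNONO-3 and siNONO-4 (vertical axis, log2) for each tested member of 5 gene lists, with filled points for called members, a line at each list's median and a grey band from the lower to the upper quartile of all genes tested. All 37 members of the stress response list lie above 0, and the median is 0.52 there and -0.27 for interferon-stimulated genes.

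Interferon-stimulated and RNA-sensing genes, which cells switch on when they meet foreign RNA, leaned the other way. Of 30 tested members 0 were higher and 4 were lower with siNONO-3 (IFIT2, IFI44, ISG20 and DTX3L), against 4.71% higher and 5.31% lower over all genes tested. ISG20 had only 8 reads over the siNONO-3 and 36 over the siNONO-4 libraries. The median was -0.27, and 5 of the 30 differences were positive, against 49.7% over all genes. Against siCtrl the median of the list was -0.05 with siNONO-3 and 0.17 with siNONO-4. Called against siCtrl were 3 up and 5 down with siNONO-3, and 4 up and 0 down with siNONO-4. IFIT2, an interferon-induced RNA-binding protein, had 196, 173 and 202 CPM with siNONO-3, against 295, 290 and 360 CPM with siNONO-4 and 241, 234 and 277 CPM with siCtrl (difference -0.73, SE 0.10, adjusted p = 1.41e-05). The groups did not overlap, with siCtrl between the siRNAs. IFIT1, of the same family, was at 619, 658 and 719 CPM with siNONO-3, against 574, 664 and 696 CPM with siNONO-4 (difference 0.05, adjusted p = 0.852). Under the replicate block 9 members were lower and 0 higher. IFI44 was not called without siNONO-3 replicate 2 or 3 or siNONO-4 replicate 1 or 3 (adjusted p up to 0.165). The list's count was 7 without siNONO-3 replicate 1, and 2 without siNONO-3 replicate 2, siNONO-3 replicate 3 or siNONO-4 replicate 1.

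Among 22 tested NF-kB targets and cytokines, 4 were higher with siNONO-3 (IL1A, IER3, ICAM1 and CXCL1) and 2 lower (IL6 and PPBP), against 4.71% and 5.31% over all genes tested. IER3, an early response gene, had 15.9, 11.6 and 9.23 CPM with siNONO-3, against 7.69, 4.93 and 5.34 CPM with siNONO-4 and 2.06, 2.35 and 1.68 CPM with siCtrl (difference 1.02, SE 0.23, adjusted p = 0.00353). IL6, the cytokine interleukin 6, had 1.382, 0.955 and 0.653 CPM with siNONO-3, against 4.08, 1.39 and 2.36 CPM with siNONO-4 and 0.804, 0.716 and 0.364 CPM with siCtrl. Its siNONO-4 libraries were the highest, and its difference of -1.40 (adjusted p = 0.0203) had an adjusted p of up to 0.22 without siNONO-3 replicate 2 or 3 or siNONO-4 replicate 1. The adjusted p reached 0.0872 for IL1A without siNONO-3 replicate 3 or siNONO-4 replicate 1 or 2, 0.104 for ICAM1 without siNONO-3 replicate 1 or siNONO-4 replicate 2 or 3, and 0.0968 for PPBP without siNONO-3 replicate 1 or 3 or siNONO-4 replicate 3. The list's count of 6 was 2 without siNONO-3 replicate 3, and 3 without siNONO-3 replicate 1 or any 1 of the siNONO-4 libraries.

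Genes of RNA metabolism were compared because the series is about microRNA production. Of 38 tested genes of microRNA processing and silencing, 1 was higher and 2 were lower, with a median of -0.01. LIN28A, which blocks the maturation of let-7 microRNAs, had 226, 228 and 171 CPM with siNONO-3, against 104, 116 and 78.3 CPM with siNONO-4 and 178, 193 and 147 CPM with siCtrl (difference 1.07, SE 0.13, adjusted p = 7.25e-06). The siNONO-4 libraries were the lowest. TNRC6B and TNRC6C, the scaffold proteins that link Argonaute to mRNA decay, were lower with siNONO-3. TNRC6B had 98.5, 85.6 and 88.2 CPM with siNONO-3, against 132, 129 and 137 CPM with siNONO-4 and 112, 112 and 116 CPM with siCtrl (difference -0.55, SE 0.08, adjusted p = 2.85e-05). TNRC6C differed by -0.68. In the fit with the replicate block, 3 members of this list were higher and 7 lower. Of 34 tested noncoding host genes of microRNAs, MIR17HG was higher with siNONO-3 (0.39, adjusted p = 0.0197) and FTX lower (-0.46, adjusted p = 0.0332). MIR17HG reached an adjusted p of up to 0.144 without siNONO-3 replicate 2 or 3 or siNONO-4 replicate 1, and FTX of up to 0.169 without any 1 of the libraries other than siNONO-3 replicate 1. The list gave 0 calls without siNONO-3 replicate 2, siNONO-3 replicate 3 or siNONO-4 replicate 1, and 1 without siNONO-4 replicate 2 or 3.

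The paraspeckle genes gave no call between the siRNAs by edgeR over all 24 libraries, neither the 4 of SFPQ, NONO, PSPC1 and NEAT1 nor the 30 tested genes of other paraspeckle proteins. At an unadjusted p under 0.05 there were 0 and 8, and DESeq2 called 0 and 1. Of the 30, 1 was higher and 2 were lower with the replicate block, and 1 was called without siNONO-3 replicate 1 or siNONO-4 replicate 2. The block on the siCtrl and siNONO libraries only called 11 of the 30, and an edgeR fit of the 6 siNONO libraries only called NEAT1 of the 4 (difference -0.41, adjusted p = 0.00301). NEAT1 had 289, 290 and 267 CPM with siNONO-3, against 393, 349 and 376 CPM with siNONO-4 and 268, 231 and 429 CPM with siCtrl (difference -0.40, 95% interval -0.90 to 0.10, adjusted p = 0.335). The siRNAs did not overlap in NEAT1, but the siCtrl libraries spanned both. SFPQ was at 1571, 1463 and 1443 CPM with siNONO-3, against 1573, 1602 and 1666 CPM with siNONO-4, and PSPC1 at 208, 215 and 200 CPM with siNONO-3, against 203, 197 and 211 CPM with siNONO-4. PSPC1 rose against siCtrl with both siRNAs, by 0.72 with siNONO-3 and 0.69 with siNONO-4.

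Of 25 tested nuclear RNAs and host genes of small nucleolar RNAs, 5 were higher with siNONO-3 (SNHG7, SNHG1, SNHG8, SNHG16 and SNHG29) and 0 were lower, against 4.71% and 5.31% over all genes tested, and the median was 0.20. SNHG7 had 51.9, 53.9 and 61.6 CPM with siNONO-3, against 29.3, 35.6 and 31.6 CPM with siNONO-4 and 36.2, 36.2 and 39.9 CPM with siCtrl (difference 0.80, SE 0.14, adjusted p = 0.000216). GAS5, of the same group, was at 271, 324 and 333 CPM with siNONO-3, against 262, 304 and 295 CPM with siNONO-4 (difference 0.11, adjusted p = 0.526). With the replicate block 9 were higher and 2 lower. Cytosolic ribosomal protein genes had 2 of 60 higher (RPS28 and RPS21) and 1 lower (RPSA), both below the shares over all genes, while 57 of 60 differences were positive with a median of 0.15. With the block 10 were higher and 2 lower. RPS21 was not called without siNONO-3 replicate 2 or 3 or siNONO-4 replicate 1 or 3 (adjusted p up to 0.153). RPS28 had 85.8, 107 and 110 CPM with siNONO-3, against 55.0, 54.6 and 50.7 CPM with siNONO-4 and 72.6, 81.9 and 83.9 CPM with siCtrl (difference 0.92, SE 0.17, adjusted p = 0.000999). RPSA went the other way, with 192, 224 and 190 CPM with siNONO-3, against 341, 363 and 336 CPM with siNONO-4 and 319, 338 and 318 CPM with siCtrl (difference -0.78, SE 0.09, adjusted p = 2.05e-06). Reads of ribosomal protein genes can also match their pseudogene copies.

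Of 36 tested factors of the RNA exosome and mRNA decay, 1 was higher (EXOSC8) and 4 were lower (XRN1, EXOSC10, SMG1 and CASC3). EXOSC10, the nuclear exosome nuclease, had 97.7, 102 and 90.3 CPM with siNONO-3, against 121, 121 and 128 CPM with siNONO-4 (difference -0.35, SE 0.07, adjusted p = 0.00238). Of 41 tested splicing regulators, 2 were higher (MBNL2 and CELF1) and 1 was lower, the splicing factor RBFOX2, with 91.4, 82.8 and 82.0 CPM with siNONO-3, against 122, 120 and 120 CPM with siNONO-4 and 145, 149 and 152 CPM with siCtrl (difference -0.50, SE 0.07, adjusted p = 1.15e-05). RBFOX2 was lower than siCtrl with both siRNAs. The adjusted p reached 0.24 for EXOSC8 without siNONO-3 replicate 2 or siNONO-4 replicate 1 or 3, 0.126 for XRN1 without siNONO-3 replicate 1 or 2 or siNONO-4 replicate 2 or 3, 0.0517 for SMG1 without siNONO-3 replicate 2 or siNONO-4 replicate 2, and 0.0792 for MBNL2 without siNONO-3 replicate 1 or 2 or siNONO-4 replicate 2 or 3. The decay count of 5 was 2 without siNONO-3 replicate 2 or siNONO-4 replicate 3 and 3 without siNONO-4 replicate 2. Of the splicing regulators 4 were higher and 1 lower with the replicate block. Of the 16 core histone genes, H2AC6 was lower with siNONO-3 (-0.58, adjusted p = 0.00997) and 0 were higher, against 1 higher and 2 lower with the block.

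Several receptors were among the signalling genes that differed. TGF-beta and BMP genes had 2 of 32 tested members higher and 2 lower, against 4.71% and 5.31% over all genes tested. TGFBR3, the co-receptor betaglycan, had 31.5, 24.4 and 23.8 CPM with siNONO-3, against 11.6, 15.4 and 9.54 CPM with siNONO-4 and 28.8, 26.2 and 25.9 CPM with siCtrl (difference 1.13, SE 0.18, adjusted p = 7.82e-05). BMPR2, a BMP receptor, was lower with siNONO-3 beside TGFBR2 (-0.58, adjusted p = 7.5e-05), and the higher SMAD5 (0.28, adjusted p = 0.0432) was not called without any 1 of the 6 libraries (adjusted p up to 0.2). The replicate block gave 3 higher and 5 lower TGF-beta and BMP genes. In the NOTCH pathway 2 of 25 were higher and 2 lower. NOTCH1 had 90.8, 70.7 and 89.4 CPM with siNONO-3, against 57.7, 46.6 and 57.6 CPM with siNONO-4 and 42.7, 38.8 and 42.7 CPM with siCtrl (difference 0.63, SE 0.11, adjusted p = 0.000171). NOTCH3, another receptor of the family, was lower with siNONO-3 (-0.81, adjusted p = 0.00328), as was the coactivator MAML3 (-0.71, adjusted p = 0.00427). The ligand JAG2 was higher (0.40, adjusted p = 0.0308), with an adjusted p of up to 0.158 without siNONO-3 replicate 1 or 3 or siNONO-4 replicate 1 or 2. With the block 3 NOTCH genes were higher and 4 lower.

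WNT genes had 0 of 29 higher and 3 lower, the receptors FZD3 (-0.75, adjusted p = 0.00234) and ROR2 and the ligand WNT3. ROR2 and WNT3 reached adjusted p-values of up to 0.0744 and 0.104, both without siNONO-3 replicate 2, ROR2 also without siNONO-4 replicate 1 and WNT3 without siNONO-4 replicate 3. With siNONO-3 replicate 2 left out 1 WNT gene was called, and with the replicate block 5 were lower and 0 higher. Receptor tyrosine kinase and MAP kinase feedback genes had 1 of 35 higher and 3 lower. JUN, a subunit of the AP-1 factor, had 17.7, 21.6 and 23.6 CPM with siNONO-3, against 14.1, 7.83 and 11.5 CPM with siNONO-4 and 7.51, 9.51 and 8.82 CPM with siCtrl (difference 0.91, SE 0.16, adjusted p = 0.000349). FOS, its partner in AP-1, was lower with siNONO-3 (-1.41, adjusted p = 0.0127), but not without siNONO-3 replicate 1 or 2 or siNONO-4 replicate 3 (adjusted p up to 0.129). DUSP4, a MAP kinase phosphatase, and the factor ETV5 were lower, by -0.73 and -0.40.

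Collagen, laminin and integrin genes had 1 of 38 higher (HSPG2) and 5 lower (ITGA1, ITGA7, COL1A1, COL17A1 and LAMB1), against 4.71% and 5.31% over all genes tested. Without siNONO-3 replicate 3, 2 calls were made. HSPG2 was not called without siNONO-3 replicate 1 or 3 or siNONO-4 replicate 2 or 3 (adjusted p up to 0.105). COL1A1, the collagen 1 alpha 1 chain, had 19.8, 16.4 and 16.5 CPM with siNONO-3, against 27.8, 33.0 and 37.9 CPM with siNONO-4 and 10.4, 16.5 and 13.7 CPM with siCtrl. The siNONO-4 libraries stood above all others (difference -0.90, adjusted p = 0.0158), with an adjusted p of up to 0.0759 without siNONO-3 replicate 2 or 3 or siNONO-4 replicate 3. Mesenchymal and YAP-responsive genes had 2 of 27 higher (ANXA1 and ANXA3) and 3 lower (WWTR1, ZEB2 and YAP1), and 6 higher and 4 lower with the replicate block. The adjusted p reached 0.0931 for ANXA1 without siNONO-3 replicate 1 or 2 or siNONO-4 replicate 2 or 3, 0.157 for ANXA3 without any 1 library other than siNONO-4 replicate 2, and 0.067 for ZEB2 without siNONO-4 replicate 3. The count of 5 was 2 without siNONO-3 replicate 2 and 3 without siNONO-3 replicate 1 or siNONO-4 replicate 3. WWTR1, the YAP1 relative TAZ, had 79.9, 63.1 and 59.8 CPM with siNONO-3, against 151, 114 and 110 CPM with siNONO-4 and 178, 144 and 144 CPM with siCtrl (difference -0.89, SE 0.13, adjusted p = 8.86e-05). The coactivator YAP1 was lower too (-0.42, adjusted p = 0.0172), with an adjusted p of up to 0.141 without siNONO-3 replicate 2 or 3 or siNONO-4 replicate 1. Of 30 tested axon guidance and synaptic genes, PLXNA1 was higher (0.70, adjusted p = 0.000149) and EFNA1, GRIK1, ROBO1 and EPHB2 were lower, against 2 higher and 6 lower with the block. EFNA1 was not called without siNONO-3 replicate 1 or 2 or siNONO-4 replicate 1 or 3 (adjusted p up to 0.246), nor ROBO1 without siNONO-3 replicate 2 or 3 or siNONO-4 replicate 1 (up to 0.101). The count of 5 was 3 without siNONO-3 replicate 2 or 3 or siNONO-4 replicate 3. The 21 cadherins and protocadherins, the 11 small cell lung cancer and neuroendocrine genes and the 6 markers of other cell types that were tested gave no call by edgeR over all 24 libraries, with or without the block, nor by DESeq2. The block on the siCtrl and siNONO libraries only called 1 gene of each of these 3 lists. At an unadjusted p under 0.05 there were 0 cadherins, 2 small cell lung cancer and neuroendocrine genes and 0 markers of other cell types.

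In the cell cycle lists, 1 of 46 tested S-phase genes and 1 of 39 mitosis genes were lower with siNONO-3 and 0 were higher, below the 5.31% and 4.71% over all genes tested. DTL, a subunit of a ubiquitin ligase that acts in S phase, had 55.0, 62.2 and 48.4 CPM with siNONO-3, against 111, 117 and 106 CPM with siNONO-4 and 130, 151 and 126 CPM with siCtrl (difference -1.01, SE 0.12, adjusted p = 2.11e-06). ECT2, which guides cell division, was lower by -0.54 (adjusted p = 0.00058). The replicate block gave 4 higher and 2 lower S-phase genes, and 3 mitosis genes higher and 4 lower. Of 48 double-strand break repair genes 3 were higher (BRCA2 and RNF8 among them) and 1 was lower (FANCA), and with the block 4 were higher and 5 lower. Without siNONO-3 replicate 1 the repair count was 1, and 2 without any other 1 library. RNF8 reached an adjusted p of up to 0.0655 without any 1 library other than siNONO-3 replicate 2, and FANCA of up to 0.224 without any 1 library other than siNONO-4 replicate 3. The third higher gene was called whichever of the 6 libraries was left out. BRCA2 had 92.5, 95.9 and 80.7 CPM with siNONO-3, against 62.6, 64.4 and 48.1 CPM with siNONO-4 and 91.3, 103 and 76.4 CPM with siCtrl. The call of BRCA2 (0.62, adjusted p = 0.0148) had an adjusted p of up to 0.102 without siNONO-3 replicate 1 or 2 or siNONO-4 replicate 3. The BCL2 family had PMAIP1, a promoter of cell death, higher (0.85, adjusted p = 0.00858) and BID and BCL2 lower among 15 tested, against 3 higher and 2 lower with the block. The adjusted p reached 0.249 for BID without siNONO-3 replicate 2 or 3 or siNONO-4 replicate 1 or 2, and 0.163 for BCL2 without siNONO-3 replicate 1 or 3 or siNONO-4 replicate 1 or 3. Without siNONO-3 replicate 3 or siNONO-4 replicate 1 the count was 1.

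In metabolism, BNIP3L, a receptor for the removal of mitochondria, had 114, 122 and 116 CPM with siNONO-3, against 164, 219 and 213 CPM with siNONO-4 and 248, 280 and 257 CPM with siCtrl (difference -0.75, SE 0.09, adjusted p = 2.65e-06). It was the only gene lower among 37 of glycolysis and hypoxia, of which P4HA2 and PFKFB3 were higher. MAP1LC3B, the autophagosome protein LC3B, had 46.5, 59.1 and 48.5 CPM with siNONO-3, against 76.4, 88.4 and 86.2 CPM with siNONO-4 and 90.3, 104 and 98.8 CPM with siCtrl (difference -0.70, SE 0.09, adjusted p = 2.65e-06). The siNONO-3 libraries were the lowest in both genes. Among 40 lysosome and autophagy genes LAMP2 was lower too, and 2 were higher, CTSL among them. Of 32 cholesterol genes, FADS1 (-0.52, adjusted p = 2.03e-05) and SREBF2 were lower and 0 higher, of 20 NRF2 targets FTL was lower, and of 13 tested heat shock genes CRYAB. Of 56 nuclear genes of the respiratory chain, NDUFS5 and SDHC were higher and NDUFA6 was lower (-0.46, adjusted p = 0.0028), and of 13 mitochondrially encoded mRNAs MT-CO3 was lower (-0.30, adjusted p = 0.0165), though not without siNONO-4 replicate 3 (adjusted p = 0.129), the library with the highest mitochondrial share. Of 21 core clock genes NFIL3 (-0.94, adjusted p = 0.0022) and CRY1 were lower and 0 higher.

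Many of these metabolic calls were lost in fits that left out 1 library, which held fewer libraries and no replicate block. With the block over all libraries they were called, P4HA2 at an adjusted p of 0.0011 and NDUFS5 at 0.0222 among them. The adjusted p reached 0.113 for P4HA2 without siNONO-3 replicate 3 or siNONO-4 replicate 1, and 0.0747 for PFKFB3 without siNONO-3 replicate 2 or 3 or siNONO-4 replicate 1. It reached 0.182 for LAMP2 without any 1 library other than siNONO-4 replicate 2, 0.124 for SREBF2 without siNONO-3 replicate 1 or 2 or siNONO-4 replicate 1 or 3, and 0.37 for FTL without siNONO-3 replicate 2 or 3 or siNONO-4 replicate 1 or 2. NDUFS5 (up to 0.135) was not called without any 1 of the 6 libraries, SDHC (up to 0.2) without any 1 other than siNONO-3 replicate 1, and CRY1 (0.07) without siNONO-4 replicate 2. With the replicate block the calls were 3 higher and 3 lower in glycolysis and hypoxia, 2 higher and 6 lower in lysosome and autophagy, 1 higher and 4 lower in cholesterol synthesis, 1 higher and 5 lower among NRF2 targets, 4 higher and 1 lower in the respiratory chain, and 0 higher and 3 lower among mitochondrially encoded mRNAs.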

How the data were processed

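The deposited values are raw read counts (whole numbers) for 60605 Ensembl genes, which the authors made with cutadapt 4.2, STAR 2.7.5a and featureCounts of Subread 2.0.3 on hg38, per the submitters' processing notes. No source used here states the annotation release or strand setting. One robust edgeR model (version 4.0.16, under R 4.3.3) with TMM factors and filterByExpr covered all 24 libraries, with its quasi-likelihood test. A call means a p under 0.05 after Benjamini-Hochberg adjustment over all genes. CPM are TMM-scaled. Replicate differences used log2(CPM + 0.5). The replicate numbers pair the libraries, since deviations of siNONO-3 and siNONO-4 libraries of the same number correlated at 0.54, 0.38 and 0.60 over 9614 genes and those of other numbers at no more than -0.04. The code was tested on simulated data.

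The members and the 36 gene lists were chosen with earlier results of these data known. The lists are described by counts and medians, without a set test. Named were SFPQ, NONO, PSPC1 and NEAT1, the 15 largest rises and falls (at least 5 CPM in 1 group, groups apart), up to 3 rises and 3 falls of each list, 5 genes of each class against siCtrl, and the genes of the printed sites. CDKN1A, APAF1, IFIT1, SLC7A11, ALDH1L2, TRIB3, MDM2, GAS5 and the other genes named from the lists were chosen after their values were seen. A 3' UTR is the longest of a gene in GENCODE release 29, basic set. Alternatives were DESeq2 1.42.0, other scalings, filters and sets of libraries, the replicate block and leaving out each library. Some genes and lists are not reported here.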

Additional observations from a re-analysis of the deposited data

How the results depend on the processing

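The count of 1590 genes for siNONO-3 minus siNONO-4 was 2733 with the replicate block and 3995 with the block on siCtrl and siNONO libraries only, and 951 to 1332 with 1 library left out. It stayed within 1.5 times under the other alternatives, with 1700 by DESeq2. For siNONO-3 minus siCtrl, 3165 genes became 5659 with the block on siCtrl and siNONO libraries only and 1979 to 2751 with 1 library left out. For siNONO-4 minus siCtrl, 1752 genes became 3118 with the block, 4372 with the block on siCtrl and siNONO libraries only and 924 to 1587 with 1 library left out. The causes were not tested. Of 138 named genes 126 were called, 77 of them in each fit that left out 1 library, and all 126 with the block, which added 4 and ended none. Over all alternatives, single named genes kept their side of the threshold in 1821 cases, lost it in 219, passed it in 23 and changed direction as a called gene in 0. The counts of the lists stayed within 1.5 times in 399 cases and moved farther in 141. The median of genes with the 8-base site minus that of genes with none was -0.19 for AACATCAA and -0.21 to -0.18 under the alternatives chosen after seeing the data. For ACCACACA it was 0.09, 0.15 with the shortest 3' UTR, 0.07 on odd-numbered chromosomes and 0.10 on even-numbered chromosomes and X. Depth limits the genes of few reads, such as ISG20 with 8 reads over the siNONO-3 and 36 over the siNONO-4 libraries. In the same order IL1A had 40 and 11 reads, and PLK2 had 161 and 27. Counting error is all that read counts alone bound.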

Other observations

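Called genes differed from the rest in kind. Of the 747 genes higher with siNONO-3, 93.7% were protein-coding, and of the 843 lower genes 91.5%, against 78.9% of all genes tested. The median CPM over the 6 libraries was 53.3 for the higher and 36.2 for the lower genes, against 14.1 for all. The median 3' UTR was 1761 bases long in the higher and 2069 bases in the lower genes, against 1432 in all, and the median gene spanned 34.1 kb among the higher and 49.3 kb among the lower genes, against 27.4 kb among all. The part of abundance and length in these calls was not tested.

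In 34 genes the 3' UTR held AACATCAA and ACCACACA. Their median difference between siNONO-3 and siNONO-4 was -0.15 (log2), with -0.18 for siNONO-3 minus siCtrl and -0.11 for siNONO-4 minus siCtrl, and 3 were called higher and 3 lower between the siRNAs. MALAT1, a nuclear RNA, had 1365, 1309 and 1206 CPM with siNONO-3, against 1974, 1620 and 2173 CPM with siNONO-4 and 1436, 1398 and 2064 CPM with siCtrl (edgeR difference -0.57, adjusted p = 0.0894, with the replicate block 0.0209). The siNONO-3 libraries were the lowest, and the siCtrl libraries overlapped those of siNONO-4.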
